A study of Mus musculus with 55 samples.

Results

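The cytosolic ribosomal protein genes described here are 48 genes, 29 of the large subunit (symbols Rpl and Rplp) and 19 of the small subunit (Rps), chosen by symbol and not by their values, out of 37620 genes in the files. All 48 were found under a single gene identifier each, and all 48 passed the filter on low counts. The data were RNA sequencing (RNA-Seq) profiles of polyadenylated RNA from the livers of 55 untreated male mice of 29 Collaborative Cross (CC) lines, which are recombinant inbred lines bred from classical laboratory strains and wild-derived strains. Of the lines, 8 had 1 mouse, 16 had 2 mice and 5 had 3 mice. The mice were 8 to 11.9 weeks old and weighed 12.8 to 38 g, they were fed chow, and no treatment was given. The line is the only labelled grouping. Line mates had the same age in every line but IL-785, so differences among lines cannot be told apart from differences of age. The study's methods give a range of inbreeding generations, and mice of 1 line need not carry the same alleles everywhere. No separate cultures or batches are labelled, so the spread within a line holds animal and technical differences together.

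Ribosomal proteins are assembled with ribosomal RNA into the small and the large subunit of the ribosome, and a subunit needs about the same number of copies of nearly every protein. Their mRNAs are among the most abundant of any cell, they start with a run of pyrimidine bases (the 5′ terminal oligopyrimidine tract) and they are translated together under the control of the mTOR pathway. In mammalian genomes many of these genes have left processed pseudogenes, which are copies of the spliced mRNA put back into a chromosome, without introns and often nearly identical to the coding sequence of the parent gene. A short read from such a stretch aligns to the parent and to its copies alike.

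A copy is taken here to be any other annotated gene whose transcript, on the same strand, matched at least 50% of the coding sequence of a member with at least 90% identity. By this rule 44 of the 48 genes had a copy and 305 copies were found, of which 229 are annotated as pseudogenes, 72 as protein coding and 4 as processed transcripts. For 17 genes no stretch of 50 bases of the coding sequence, the length of a read, was found in that gene alone. The 4 genes with no copy and with only unique stretches were Rpl4, Rpl8, Rps3 and Rps9.

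The bases that tell a parent from its copy are few, as the following stretches of 60 coding bases show, with bases that differ in capitals. They are given because these genes are among those whose fragments were split with a copy, and whether these bases set the split was not tested. All are read from the reference genome (build NCBIM37), 5′ to 3′ along the transcript, and coding positions are counted from 1 at the A of the start codon. The alleles of the mice were not used.

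Rps18, a small-subunit protein of the head, lies on chromosome 17 (chr17:34089178-34089237, minus strand, an exon, coding bases 312 to 371). Its copies Gm10260 (chr13:98530173-98530232, minus strand) and Gm11361 (chr13:28349816-28349875, plus strand) are single-exon genes.
Rps18: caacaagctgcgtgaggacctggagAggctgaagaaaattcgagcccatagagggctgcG
Gm10260: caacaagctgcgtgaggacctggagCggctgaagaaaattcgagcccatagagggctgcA
Gm11361: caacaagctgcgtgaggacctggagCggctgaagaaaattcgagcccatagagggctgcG
Over the 456 coding bases, Gm10260 differed from Rps18 by 4 substitutions (T186C, A337C, G371A and G431A, the base of Rps18 first) and Gm11361 by 3 (T11A, A171C and A337C). A fragment that lies within the coding bases and covers none of these positions cannot be placed by sequence.

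Rpl34, of the large subunit, lies on chromosome 3 (chr3:130431969-130432028, minus strand, coding bases 106 to 165), and Rpl34-ps1 is a single-exon pseudogene on chromosome 6 (chr6:71074709-71074768, plus strand).
Rpl34: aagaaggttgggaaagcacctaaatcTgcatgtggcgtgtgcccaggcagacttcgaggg
Rpl34-ps1: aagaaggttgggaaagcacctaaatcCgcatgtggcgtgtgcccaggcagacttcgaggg
Over 351 coding bases this pair differed by 2 substitutions, T132C and C318G.

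Rps2, which lines the path of the mRNA through the small subunit, lies on chromosome 17 (chr17:24857280-24857339, plus strand, coding bases 60 to 119), and the pseudogene Rps2-ps13 on chromosome X (chrX:50251824-50251883, plus strand). Rpl3, near the peptidyl transferase centre of the large subunit, lies on chromosome 15 (chr15:79912900-79912959, minus strand, coding bases 57 to 116), and Rpl3-ps1 on chromosome X (chrX:12779754-12779813, plus strand).
Rps2: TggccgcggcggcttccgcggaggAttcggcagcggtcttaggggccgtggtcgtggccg
Rps2-ps13: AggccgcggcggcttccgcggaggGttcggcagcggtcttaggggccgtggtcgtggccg
Rpl3: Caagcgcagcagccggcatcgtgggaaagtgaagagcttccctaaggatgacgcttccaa
Rpl3-ps1: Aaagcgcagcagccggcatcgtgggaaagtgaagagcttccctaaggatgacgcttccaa
Rps2 and Rps2-ps13 differed by 7 substitutions over 879 bases (among them T60A and A84G), and Rpl3 and Rpl3-ps1 by 2 over 1209 bases (C57A and T786C).

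Rpl5, which carries the 5S ribosomal RNA into the large subunit, is shown as the opposite case (chr5:108330889-108330948, plus strand, coding bases 4 to 63). Its copy Gm15500 (chr7:121849615-121849674, minus strand, inside an annotated single-exon processed transcript) was identical to it over all 891 coding bases.
Rpl5: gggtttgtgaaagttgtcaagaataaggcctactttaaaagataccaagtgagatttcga
Gm15500: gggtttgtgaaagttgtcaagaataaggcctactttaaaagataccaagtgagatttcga
The same held for Rps13 with Gm10159 (453 bases), Rpl10 with Rpl10-ps3 (642 bases), Rpl15 with Rpl15-ps3 (612 bases) and Rps6 with Gm13654 (747 bases), each with 0 substitutions.

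The pyrimidine tract was searched for at the annotated start sites of 39 members, and by the rule below it was found in fewer of them than not. The annotated starts were not checked against these data. A tract at a start that lies elsewhere would be missed, so the counts do not show which mRNAs lack it. A C at the annotated start or within 5 bases of it, with at least 4 C or T bases directly after it on the transcribed strand, was found in 18 of 39 members with a promoter in the RefSeq table (46.15%, build GRCm38.p6) against 21.16% of 27025 genes. Exactly at the annotated start it was found in 10 of the 39 (25.64%) against 3.01% of genes. The large-subunit gene Rpl34 had a tract near each of its annotated starts (runs of 6 and 8 bases). The 15 bases on each side of the start are shown for 3 small-subunit genes with a tract, in capitals. They are also shown for the large-subunit genes Rpl4 and Rpl5, in which none was found by this rule. In the Rpl4 window, the last C of a pyrimidine run lies more than 5 bases before the start.
Rps18: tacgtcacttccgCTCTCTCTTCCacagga
Rps6: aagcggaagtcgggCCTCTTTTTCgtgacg
Rps9: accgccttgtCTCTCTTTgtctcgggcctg
Rpl4: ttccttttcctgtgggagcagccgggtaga
Rpl5: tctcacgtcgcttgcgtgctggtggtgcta
These windows lie at chr17:33955651-33955680 (minus strand), chr4:86857353-86857382 (minus strand), chr7:3704026-3704055 (plus strand), chr9:64173372-64173401 (plus strand) and chr5:107900513-107900542 (plus strand) of that build. A match is a description of the reference sequence and was not set against any measurement.

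The libraries held 20542671 to 33953036 assigned fragments per mouse (median 27700357). The tissue label fitted the markers, since 5 hepatocyte markers had a summed FPKM (fragments per kilobase of transcript, scaled by the fragment total of the mouse) of 17050 to 69026, and markers of other cells were also found. Erythroid markers summed to 446 to 4531, Kupffer cell markers to 16.3 to 437, bile duct markers to 6.5 to 208, stellate cell markers to 11.6 to 129, endothelial markers to 12.2 to 75.6, B cell markers to 0.14 to 14.2 and T cell markers to 0.32 to 6.26. The mice of IL-1052 and IL-2750 went against their labels. Over 11284 genes, IL-1052 mouse 1 had a rank correlation of 0.977 and 0.976 with IL-2750 mice 1 and 3 and of 0.931 with the other mouse of its own line, and IL-2750 mouse 2 had 0.968 with IL-1052 mouse 2 and 0.926 and 0.939 with the mice of its own line. The labels were kept, and the main results are also given without these lines. Replicate numbers within a line only name the mice.

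Averaged over the 29 lines, the genes had a median FPKM of 202, from 6.92 for Rpl5 to 496 for Rplp1. The highest were Rplp1, a protein of the stalk that recruits translation factors, with 496 ± 120 (SD of 29 line means), Rps29 with 458 ± 160 and Rps24 with 391 ± 82.7, the last of these a small-subunit protein mutated in some patients with Diamond-Blackfan anaemia. Their SDs within lines were 63.9, 65.2 and 61.3. In the mice, Rplp1 ranged from 289 over a median of 459 to 854, Rps29 from 298 over 408 to 1002, and Rps24 from 231 over 393 to 635.

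The lowest were Rpl5, Rps13 and Rpl27, with 6.92 ± 3.63, 11.9 ± 3.57 and 18.4 ± 3.74 FPKM. In the mice, Rpl5 ranged from 3.41 over a median of 5.95 to 25.6. Rps13 ranged from 5.5 over 10.98 to 23.4. Rpl27 ranged from 11.98 over 17.8 to 32.6. Each of these 3 genes has a copy of identical coding sequence, and the copies held most of the fragments. Of the fragments assigned to a gene and its copies together, Rpl5 held on average 4.63%, Rps13 6.31% and Rpl27 9.82%. Gm15500 had a mean FPKM of 256, Gm10159 of 189 and Rpl27-ps3 of 240, which are levels like those of the other ribosomal protein genes.

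**Figure D1:**
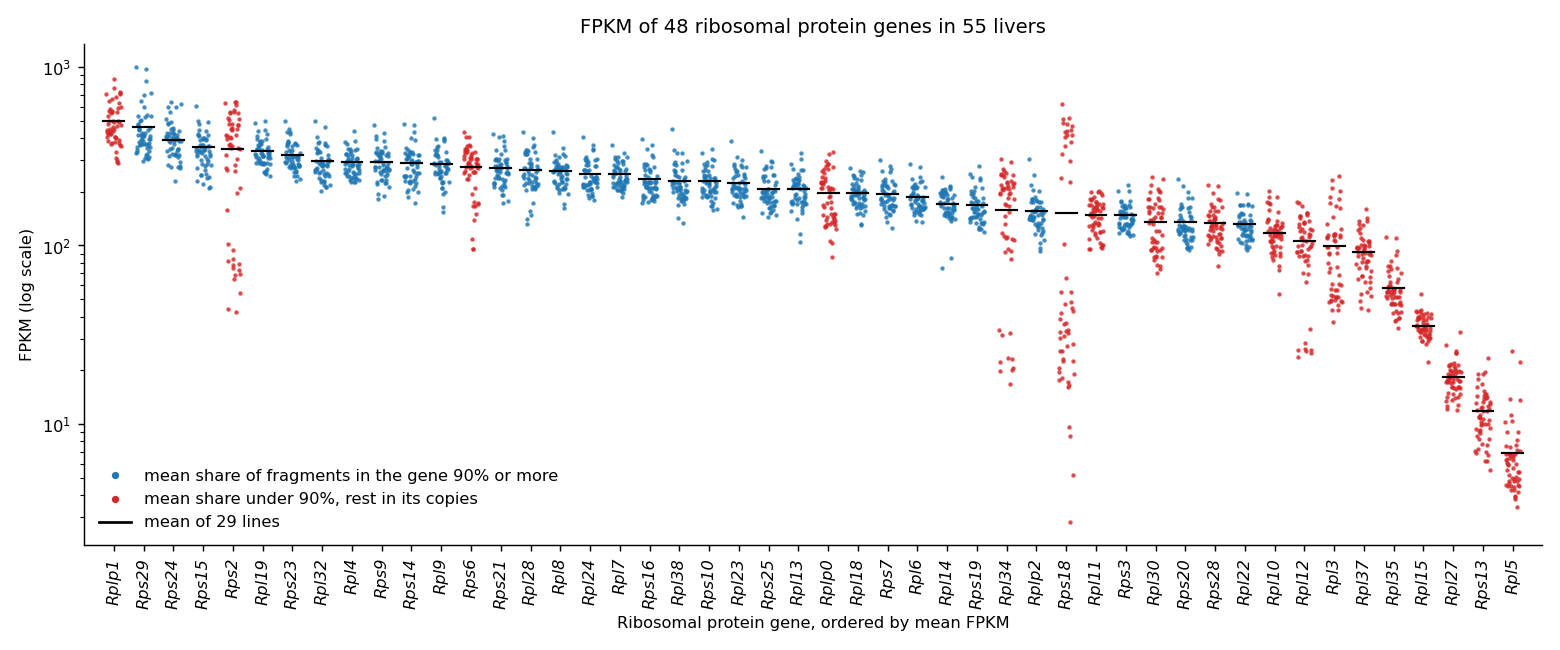
FPKM (log scale) of each of the 48 genes, ordered by mean, with 1 point for each of 55 mice and a bar for the mean of 29 lines. Genes that held on average under 90% of the fragments assigned to them and their copies are in red (18 genes): they include the 9 lowest, and Rps18, Rps2, Rpl34 and Rpl12 spread the most.

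For 18 genes the mean share held by the gene itself was under 90%, and for 6 it was under 50%. The 6 were Rpl5, Rps13, Rpl27, Rpl10 (19.9%, with Rpl10-ps3 at a mean FPKM of 535), Rpl15 (31.8%, with Rpl15-ps3 at 166) and Rps18 (34.9%, with Gm10260 at 246). Rpl10 acts in the last step of large-subunit maturation, and its own FPKM of 118 ± 30.6 was less than that of its copy in line means. Where a parent and its copy have the same coding sequence, the split between them rests on the remaining transcript bases and on the expectation-maximization step of RSEM, the program that made the values, since the coding sequence holds no base that places a fragment.

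The summed FPKM of the 48 genes ran from 7161 over a median of 9701 to 15306 in the mice. By line it was highest in IL-2126 (15306, 1 mouse), then IL-2146 (13250 ± 869, SD, n = 2), IL-4141 (12057, 1 mouse) and IL-4032 (11830, 1 mouse). It was lowest in IL-1061 (7387 ± 320, n = 2), IL-2689 (7630, 1 mouse) and IL-1452 (8097, 1 mouse). The ratio between the highest and lowest line means was 2.07.

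In the order of line means, neighbours among the lowest 27 lines were at most 467 apart, less than the SD within lines of 1062. IL-2146 stood 1193 above the next line and IL-2126 2056 above IL-2146. The SD of the line means was 1727, and the share of variance between lines (the intraclass correlation) was 0.607. Within IL-2750, mouse 1 had 12762 and mice 2 and 3 had 7907 and 8022. Without that mouse the intraclass correlation was 0.798. The members and their copies together took from 0.658% over a median of 0.818% to 1.35% of all fragments, with an intraclass correlation of 0.646 and a ratio of 2.04 between the highest and lowest line. The sum without copies holds the split of each gene with its copies, as for Rps18, which had 623 FPKM in IL-4141 and 20.5 in IL-2126. With copies, IL-4032 (1.03% of fragments) stood above IL-4141. Of the 48 genes, 29 had their highest line mean in IL-2126 and 20 had their lowest in IL-2689, both lines of 1 mouse. In bulk tissue, fewer cells of a type and less RNA per cell cannot be told apart.

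**Figure D2:**
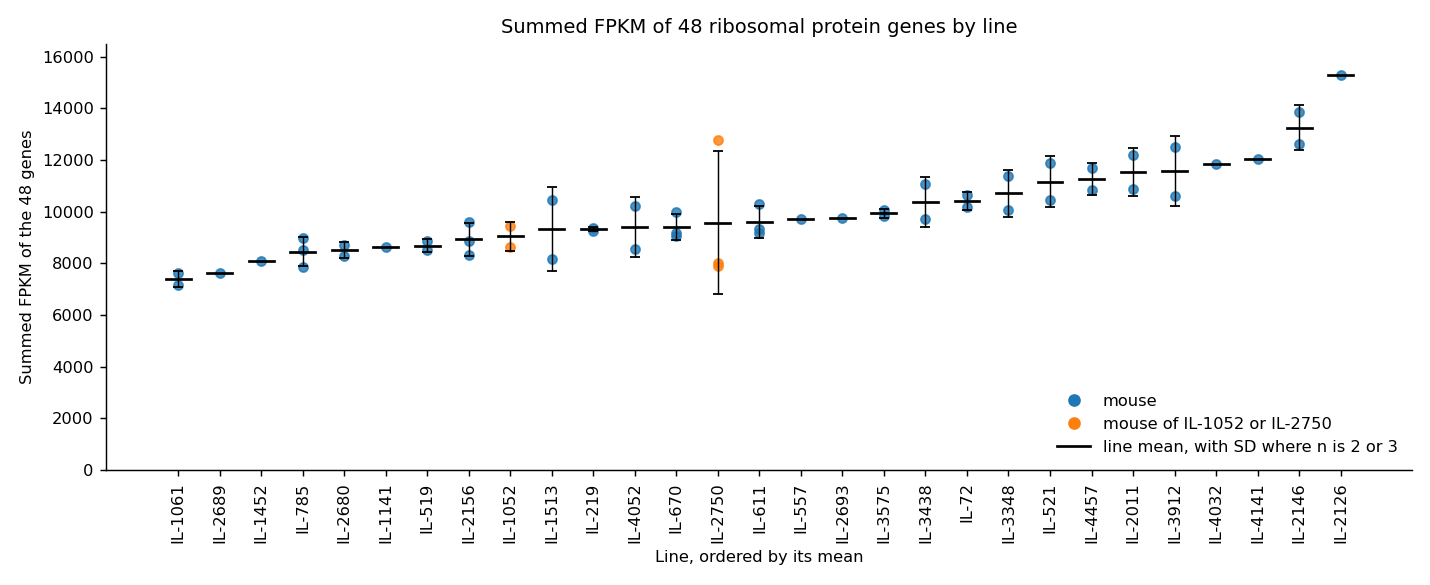
Summed FPKM of the 48 genes in each mouse (points), with the line mean (bar) and, for lines of 2 or 3 mice, its SD, ordered by the line mean, with the mice of IL-1052 and IL-2750 in orange. IL-2126 and IL-2146 lie above all other line means, and IL-2750 holds 1 mouse at 12762 and the others at 7907 and 8022.

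Over the 29 line means, the summed FPKM was set against technical measures, as a description. With the share of fragments in the 20 most expressed genes of a mouse the coefficients were negative (Pearson's r = -0.61, Spearman's rho = -0.56, and r = -0.42 without IL-1061 and IL-2126). With the summed FPKM of the hepatocyte markers r was 0.39 and rho 0.42. With the fragment total r was 0.03 and rho 0.18, with age r was 0.28 and with body weight -0.05. With the mean fragment length implied by the effective transcript lengths r was -0.22 and rho 0.05. This length was 39.8 to 98.2 bases in the mice (median 73.4), short for paired reads of 50 bases, for a reason not given in the sources used. It was 53.3 in IL-2126 and 57.3 in IL-2146, the lines with the highest sums, and lowest in IL-2750 (48.5, with a sum of 9564). All these measures come from the same libraries or animals, and their part in the common level was not tested. With the marker sums of the other cell types (Kupffer, endothelial, stellate, bile duct, T, B and erythroid cells), r ran from -0.12 to 0.20 and rho from 0.00 to 0.38. The highest rho were 0.38 for bile duct markers (r = 0.19, and 0.30 without IL-2011 and IL-2156) and 0.31 for B cell markers (r = 0.20).

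The genes rose and fell together across lines, with exceptions. The correlation of each gene with the mean of the other 47 was computed over 29 line means of log2(FPKM + 1), which share library, depth and scaling. The median was 0.82. It was 0.7 or more for 29 genes and below that for 19 genes, and 16 of these 19 were among the 18 genes with a mean share under 90%. The 3 others were Rpl14 (0.66), Rps15 (0.54) and Rps24 (0.54). The highest values were 0.94 for Rpl6 and 0.93 for Rps3. The lowest were -0.13 for Rps18, 0.00 for Rpl34, 0.14 for Rps13, 0.28 for Rpl10 and 0.31 for Rps2.

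Rps18 was the most extreme of the exceptions. Its FPKM in the mice ran from 2.82 over a median of 38.6 to 623, and its line means from 12.1 in IL-1513 (n = 2) to 623 in IL-4141 (1 mouse), a ratio of 51.4. To set a gene beside its copies, expected counts were divided by the total of the mouse and given as CPM, a unit that takes no account of length and is the same for both. On this scale Rps18 had 191, 224 and 208 in the mice of IL-2156, 223, 243 and 209 in IL-611, 275 and 251 in IL-521, and 231 and 243 in IL-72. In the same 10 mice Gm10260 was at most 0.326 and Gm11361 at most 0.0959.

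In most other lines the values were turned round. IL-219 had 8.86 and 10.1 for Rps18, with 146 and 149 for Gm10260 and 53.8 and 49.6 for Gm11361. IL-2146 had 4.76 and 8.67 for Rps18, with 212 and 211 for Gm10260. The share of fragments held by Rps18 was under 20% in 37 mice, between 60% and 80% in 3 mice (both of IL-4052 and the mouse of IL-2689) and above 80% in 15 mice, and no mouse lay between 20% and 60%.

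Line mates fell in the same band. Outside IL-1052 and IL-2750, the shares of line mates differed by a median of 1.27 percentage points and by at most 9.95 (in IL-2011). In IL-1052 the shares were 99.99% in mouse 1 and 6.34% in mouse 2, and in IL-2750 they were 99.8%, 0.967% and 100%. The intraclass correlation of the share was 0.766 with all lines, 0.997 without these 2 lines and 0.997 with the labels of IL-1052 mouse 1 and IL-2750 mouse 2 exchanged.

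The sum of Rps18 and its copies had none of these bands. It ran from 165 to 402 CPM in the mice, and the ratio between the highest and lowest line means was 2.25 against 53.7 for Rps18 alone in the same unit. Its correlation with the other genes, also with copies, was 0.89. Since the levels of Rps18 alone fell into separate bands, its coefficient over all lines describes only that split. Within the 19 lines with a mean share under 20%, r was 0.05 and rho 0.15, and within the 6 lines at 80% or more, r was 0.83 and rho 0.83. The other 4 lines were IL-1052, IL-2750, IL-4052 and IL-2689.

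Rpl34 showed 3 bands. The share held by the gene was under 20% in 10 mice, 40% to 60% in 14 mice and 80% or more in 31 mice, with none between. In IL-2680 it had 9.56 and 8.82 CPM and Rpl34-ps1 had 83.7 and 82.5. In IL-670 it had 99.8, 91.6 and 83.3 and Rpl34-ps1 had 1.23, 0.662 and 0.421. In IL-785 the values were near equal, with 47.7, 40.6 and 43.8 for Rpl34 and 47.2, 45.7 and 39.5 for Rpl34-ps1.

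Line mates could also differ. In IL-2156, mice 1 and 3 had 70.6 and 67.6 for Rpl34, and mouse 2 had 37.3 with 49.0 for Rpl34-ps1. In IL-4052, mouse 1 had 87.7 with 0.271 and mouse 2 had 48.4 with 56.4. In IL-2750, one of the lines that went against their labels, the mice had 14.3, 87.1 and 7.64 for Rpl34 and 134, 1.78 and 84.6 for Rpl34-ps1. Added together, Rpl34 and its copies ran over a 2.48-fold range of line means against 13.3-fold for the gene alone, and the correlation with the other genes was 0.93. For Rpl34 alone, r was 0.72 and rho 0.87 within the 15 lines with a mean share of 80% or more. Within the 9 lines at 20% to 80% they were 0.44 and 0.47.

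Rps2 had 35 copies, the most of any of the 48 genes. Its FPKM ran from 42.4 over a median of 365 to 639 in the mice. In IL-670 the gene had 71.6, 67.1 and 62.4 CPM and Rps2-ps13 had 355, 380 and 364. In IL-2156 it had 414, 418 and 328 and Rps2-ps13 had 0 in each. Intermediate values were common, as in IL-785 with 374, 287 and 319 for the gene and 149, 141 and 126 for Rps2-ps13. Line mates differed most in IL-1061, outside the lines that went against their labels, with 62.1 and 256 for the gene and 337 and 223 for Rps2-ps13. With all copies added, the range of line means fell from 10.2-fold to 2.11-fold. The correlation with the other genes was 0.72, among the lowest with copies. For Rps2 alone, r was 0.49 and rho 0.34 within the 13 lines with a mean share of 80% or more. Within the 12 lines at 20% to 80% they were 0.48 and 0.41.

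Rpl3 and Rps6 had levels that differed more between lines than within them, with exceptions. In IL-1052, one of the lines that went against their labels, Rpl3 had 64.0 and 137 CPM and Rps6 had 157 and 221. In IL-3348, Rpl3 had 102 and 148. Rpl3 had 230, 260 and 205 CPM in IL-611, where Rpl3-ps1 had 0, and 56.2, 66.4 and 47.6 in IL-2156, where Rpl3-ps1 had 134, 150 and 99.0. Rps6, the substrate of the S6 kinases, had 76.6 and 75.8 in IL-1061, where its pseudogene Gm8172 had 127 and 136, and 225, 243 and 225 in IL-611, where Gm8172 had 0. Another copy, Gm13654, also held fragments. In IL-1513 it had 154 and 80.4, where Rps6 had 140 and 139 and Gm8172 had 0. The range of line means fell from 5.61-fold to 1.92-fold for Rpl3 and from 4.64-fold to 2.14-fold for Rps6 once copies were added. For Rpl12, at the base of the stalk, it fell from 6.43-fold to 2.03-fold.

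**Figure D3:**
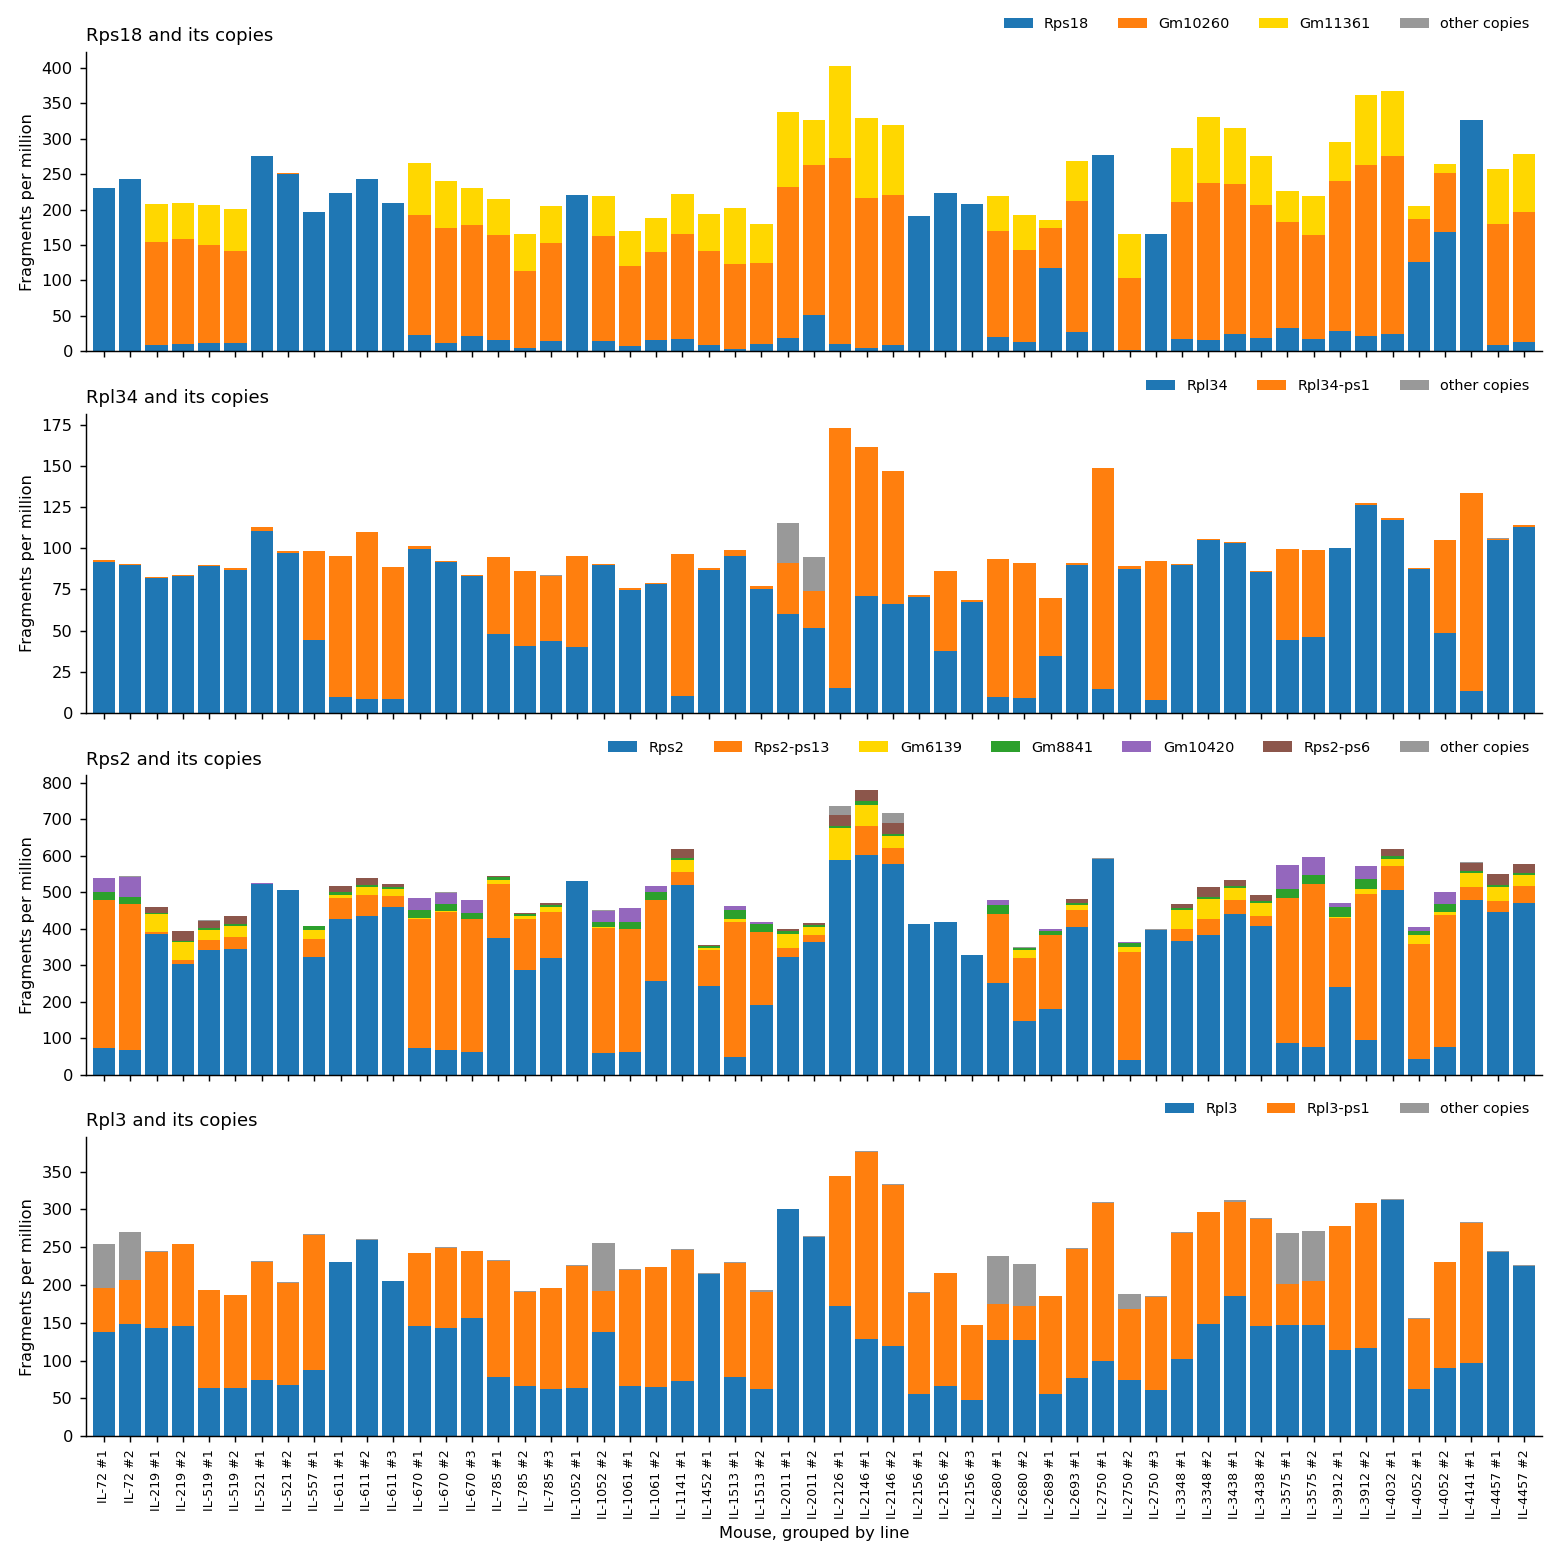
Levels (CPM) of Rps18, Rpl34, Rps2 and Rpl3 (blue) and of their copies (other colours, stacked) in each of 55 mice, grouped by line. The height of a bar is the sum, which runs from 165 to 402 for Rps18 with its copies, while Rps18 itself holds from 0.967% to 100% of it.

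With copies added, in CPM, the median correlation of a gene with the other 47 was 0.92 against 0.82 for the genes alone, and the median rank correlation was 0.88 against 0.77. Of the 19 genes below 0.7 in FPKM, 18 were at 0.7 or more, and Rplp1 at 0.64 was below. The ratio between the highest and lowest line means was at least 3 for 14 genes alone and for 2 with copies, which were Rpl38 (3.6) and Rps29 (3.52). The first principal component of the line means, each gene scaled to unit variance, held 58.1% of the variance of the genes alone and 81.9% with copies, against 15.6% for all 8742 genes with a mean FPKM of at least 2.

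Part of this common movement came from IL-2126 and IL-2146, the lines farthest from the median. Without both, the median correlation with copies was 0.87 and without copies 0.73, and the component held 72.9% and 51.2%. Without IL-1052 and IL-2750 the values were 0.92 and 0.83, and 82.9% and 58.9%.

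**Figure D4:**
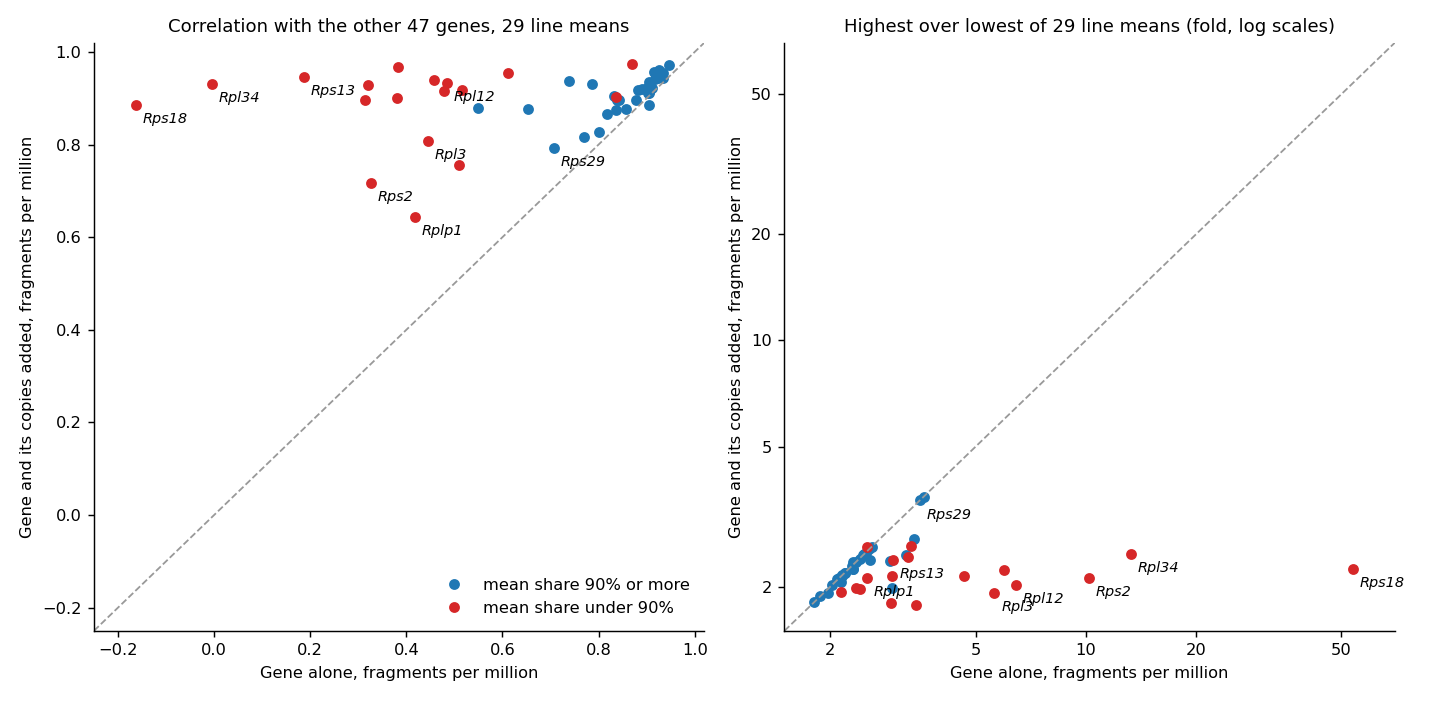
Each of the 48 genes alone (x axis) and with its copies added (y axis), in CPM: left, the correlation with the other 47 genes over 29 line means; right, the ratio between the highest and lowest line means on log scales. The dashed line marks equal values, and genes with a mean share under 90% are in red. Rps18 moves from -0.16 to 0.89 on the left and from 53.7 to 2.25 on the right.

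The 4 genes without copies give the same measures where no other gene was found to share a stretch of the coding sequence. Transcript bases outside the coding sequence were not searched. Whether other genes took fragments of these 4 genes through such bases was therefore not tested. The ratio between the extreme line means of FPKM was 1.80 for Rpl4 (228 in IL-1452 to 410 in IL-2146), 1.85 for Rps3 (113 in IL-2689 to 209 in IL-2146), 2.12 for Rpl8 (203 in IL-2750 to 432 in IL-2126, and 2.09 without IL-1052 and IL-2750) and 2.52 for Rps9 (189 in IL-519 to 475 in IL-2126). Their correlations with the other genes were 0.89, 0.93, 0.84 and 0.79. For the 30 genes with a mean share of 90% or more, the median ratio was 2.33 and the median correlation 0.88, and for the 18 others they were 3.29 and 0.45.

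A few genes departed from the others also with copies added. Rplp1 was 0.55 above the mean of the other genes on the log2 scale in IL-2689 and 0.47 below it in IL-2750 (lowest and highest differences from the mean of the others, each centred). Without IL-1052 and IL-2750 these were 0.53 in IL-2689 and -0.33 in IL-2680. Rps29 was 0.62 above it in IL-1513 and 0.29 below it in IL-4032. Rps2 was 0.48 above it in IL-1141 and 0.51 below it in IL-2011. The SDs of these differences over 29 lines were 0.23, 0.27 and 0.19, and that of Rpl6, the smallest, was 0.06.

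Rps29 was also the gene with the widest spread of the 2 that kept a ratio above 3. Its FPKM was 1002 in the mouse of IL-2126 and 307 in the mouse of IL-2689, and over the 21 lines with at least 2 mice the ratio was 2.85. For Rpl38, known for its part in the translation of some developmental mRNAs, the values were 447 and 134, and the ratio over those 21 lines was 1.84. Both ends rest on lines of 1 mouse, so no spread within the line was measured.

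Differences among lines were tested with edgeR's quasi-likelihood F test on rounded expected counts in 47 mice, those of the 21 lines that had more than 1 mouse, with Benjamini-Hochberg adjustment over 15285 genes. Of the 48 genes, 45 passed at 0.05, against 88.5% of all genes tested, and all 45 also had a ratio of at least 1.5 between line means, against 86.2%. A ratio of at least 3 was reached by 9 of the 48 that passed (46.3% of all genes) and of at least 5 by 4 (32.2%). The shares that passed the test are near the background, and the larger ratios were less frequent than in all genes, a difference that was not tested. The median ratio was 2.0 for the 48 genes and 2.9 for 13934 tested genes with a level above 0 in every line, and 2.21 for 699 genes with a mean FPKM of at least 100.

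The smallest adjusted p values from edgeR were 1.97e-12 for Rpl3, 7.39e-10 for Rpl12, 2.25e-09 for Rps6 and 4.6e-08 for Rpl5. With the counts of the copies added they were 0.00086, 0.0141, 0.00241 and 0.0473. For Rps18 the adjusted p was 2.69e-06 alone, 6.34e-12 without IL-1052 and IL-2750 and 0.000135 with copies. For Rps2 the values were 0.00196, 6.41e-07 and 0.00109, and for Rpl34 they were 2.47e-05, 3.72e-11 and 0.000776.

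The 3 genes that did not pass were Rps13, Rpl14 and Rpl7. With copies added they had adjusted p values from edgeR of 0.00426, 0.0282 and 0.0362, against 0.209, 0.115 and 0.0535 alone. DESeq2 called 46 of the 48 genes, against 88.8% of 15260 genes, and the additional gene was Rpl7 (adjusted p = 0.00393). Rplp0, the base of the stalk, went the other way, with 5.89e-06 alone and 0.0544 with copies. The p values set differences among lines, which also hold differences of age, against the spread between mice of a line, which may hold technical differences.

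The share of variance between lines was computed on normal scores of rounded FPKM over all 55 mice. Its median was 0.610 for the 48 genes, against 0.555 for 11284 genes with a maximum FPKM of at least 2 and 0.606 for the 712 genes with a mean FPKM of at least 100. It was highest for Rps6 (0.871), Rpl3 (0.811), Rplp0 (0.790), Rpl9 (0.787) and Rpl24 (0.778). With copies added, in CPM, it was 0.581 for Rps6, 0.580 for Rpl3 and 0.527 for Rplp0, and it stayed at 0.814 for Rpl9 and 0.828 for Rpl24, which hold 95.9% and 99.9% of the fragments themselves. Rpl24 ran from 180 in IL-2689 to 407 in IL-2126 and Rpl9 from 160 in IL-1061 to 521 in IL-2126.

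It was lowest for Rps13 (0.225), Rpl14 (0.331), Rps2 (0.395), Rplp2 (0.466) and Rps18 (0.496). Without IL-1052 and IL-2750 it was 0.850 for Rps2, 0.829 for Rps18 and 0.559 for Rpl14, and 0.224 for Rps13. With copies added over all lines it was 0.593 for Rps13, 0.552 for Rps2 and 0.648 for Rps18. Rpl14 held 55.0% of the fragments of gene and copy in its lowest mouse and 96.8% on average. Its lowest mouse had 74.9 FPKM against a median of 170.

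The isoform percentages varied most for Rps18, Rpl30 and Rpl10. The main isoform of Rps18 held 80.8% ± 19.3 of the gene (SD of 29 line means), with an SD within lines of 17.3. It ran from 33.0% in IL-1513, where Rps18 had only 2.46 and 9.69 CPM, to 99.3% in IL-521, both with n = 2. An isoform of Rpl30 of 388 bases held 16.4% ± 15.6, from 0% in IL-557 (1 mouse) to 61.9% in IL-2146 (n = 2). Its SD within lines was 11.3. An isoform of Rpl10 of 855 bases ran from 0% in IL-2689 to 47.2% in IL-557, both lines of 1 mouse. All 3 genes have a mean share under 90%, and fragments moved between gene and copy also move between isoforms, a part that was not tested.

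The genes of the same pathway that are not among the 48 were taken from fixed lists. Of other cytosolic ribosomal protein genes, 34 of 35 passed edgeR, against 88.5% of all genes tested, with a median ratio of line means of 2.2 against 2.9. Their median correlation with the mean of the 48 genes was 0.73 over 34 genes, from 0.93 for Rpl23a to -0.15 for Rpl26. Of 163 named Rpl and Rps pseudogenes in the files, 49 passed the filter on low counts and were tested. Of these, 43 passed edgeR (87.8%, near the share of all genes), with a median ratio of 16.4. This was the largest median ratio among the lists examined. The filter keeps a gene that is silent in most lines if a few mice have enough counts. A large ratio among the tested pseudogenes is therefore partly set by the filter and does not describe all 163.

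Of translation factors and other mRNAs with a pyrimidine tract, 17 of 19 passed (89.5%, against 88.5% of all genes), with a median ratio of 1.76 and a median correlation of 0.57. Examples are Eef1g and Eef1b2, subunits of the elongation factor that reloads eEF1A (0.86 and 0.81), and Eef1a1 itself (0.80, from 1704 FPKM in IL-2680 to 2703 in IL-4032). Of ribosome biogenesis genes 26 of 28 passed (92.9%), with a ratio of 2.13 and a correlation of 0.43, and of mitochondrial ribosomal protein genes 75 of 78 (96.2%), with 1.76 and 0.45. The median ratio of all genes was 2.9. Nop10 and Fbl, which act in modification of ribosomal RNA, had 0.78 and 0.69. All genes compared had a median correlation of 0.13.

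Of 20 genes of the mTOR pathway and transcription factors, 19 passed edgeR, against 88.5% of all genes, with a median ratio of 2.2 against 2.9, and their median correlation with the 48 genes was -0.06. Mtor had -0.16, and Larp1, which binds the pyrimidine tract, had -0.22. Myc, a driver of ribosome production, had 0.43, with 0.65 FPKM in IL-1141 and 43.3 in the mouse of IL-2126.

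Among 8588 genes with a mean FPKM of at least 2 outside the ribosomal protein genes and their copies, the genes most like the mean of the 48 over 29 lines were Pfdn5, a subunit of the chaperone prefoldin (0.87), Chmp2a, of the ESCRT machinery (0.87), Eef1g (0.86), Gnb2l1, which encodes the small-subunit scaffold RACK1 (0.86), and Btf3, of the nascent chain complex (0.86). Gnb2l1 ran from 114 to 246 FPKM and Pfdn5 from 48.9 to 111 in the mice. A gene with no symbol among the names used (ENSMUSG00000093674) had 0.91. The annotation used for the sequences does not hold it, so whether it is a ribosomal protein gene was not assessed. It was left out, as were Gm8759 (similar to Rpl31, 0.86) and the pseudogene Gm15427 (0.86).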

How the data were processed

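Liver RNA of 55 mice was sequenced as paired ends of 50 bases. Per the study's methods, the authors aligned the reads to the mouse genome (mm9, NCBI37) with an Ensembl annotation by Bowtie 2 and quantified genes and isoforms of each mouse with RSEM (version 1.2.18 in the submitters' processing notes), without pooling mice. RSEM shares a fragment that fits several places among them, and it was run with default parameters, which treat reads as unstranded, on libraries from a stranded kit. The deposited values used are expected counts, FPKM, TPM and the percent of each isoform.

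Here, symbols came from a gene name table (37205 of 37620 gene IDs). Expected counts were rounded and lines compared with edgeR 4.0.16 (TMM scaling, filter on low counts, quasi-likelihood F test, Benjamini-Hochberg adjustment); DESeq2 1.42.0 and limma 3.58.1 were alternatives. A log2 ratio in FPKM uses a pseudocount of 1. Intraclass correlations came from a one-way analysis of variance on normal scores of FPKM rounded to steps of 1/200 of a gene's maximum, or 0.5 where that is larger. Copies were found with BLAST 2.17.0 in 95337 transcripts of the 97251 deposited, rebuilt from an annotation of the same build. Tested on simulated data for differences among lines (14315 genes), edgeR recovered 100 of 100 genes changed 2-fold and 66 of 100 changed 1.5-fold, with 5 false calls among 171. In the simulation all genes had the same dispersion, a changed gene differed in a single line, and no fragments were split between copies. These rates therefore need not hold for genes whose fragments are shared with copies.

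The 48 genes and the lists were chosen with earlier results of these data known. Genes are named by a rule on intraclass correlation (5 highest, 5 lowest), correlation (5 lowest), ratio of line means (5 largest), FPKM (3 highest, 3 lowest), fragments in copies (5 largest), likeness (5 non-members) and isoforms (3 genes), and the rest (such as Rpl38 and the genes without copies) were chosen after their values were seen. RNA-Seq fragments without molecular identifiers are not independent molecules, and no counting intervals are given, since the fragments assigned to a gene are estimates.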

Additional observations from a re-analysis of the deposited data

How the results depend on the processing

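No paired analysis was possible because the replicate numbers only name the mice of a line and no label pairs mice across lines. The number of genes that passed the test among lines was 45 and stayed between 45 and 47 under DESeq2, limma, another normalization, other filters on low counts, without IL-1052 and IL-2750 and with copies added by name or by sequence (the latter chosen after seeing the data), and between 44 and 47 when each mouse was left out in turn. With a ratio of at least 2 in place of 1.5 the count was 23 in place of 45. The share of all genes was not computed at a ratio of 2, so this count has no background. That share was 86.2% at 1.5 and 46.3% at 3. At a ratio of at least 1.5, leaving out a mouse gave counts of 44 to 46. Of single genes, Rpl7, Rpl14 and Rps13 passed under some alternatives, Rplp0 did not pass with copies by sequence, and Rps28 did not pass without either mouse of IL-2146 (adjusted p from edgeR of 0.172 and 0.0643). The median intraclass correlation was 0.610 and was 0.750 without IL-1052 and IL-2750, between 0.576 and 0.741 when 1 mouse was left out (the highest without IL-2750 mouse 1), and with copies added by name 0.618, 0.733 without these lines, and 0.586 to 0.746 when 1 mouse was left out. The intraclass correlation of the summed level stayed between 0.520 (without IL-2126) and 0.798, and the median correlation between genes in FPKM or with copies between 0.774 and 0.915 under the same alternatives. In CPM without copies it was 0.770 without IL-2126 and 0.733 without IL-2126 and IL-2146. The cause of these shifts was not tested. The genes had means of 173 (Rps13) to 10848 (Rpl4) fragments, and the effect of depth was not tested. The split of fragments between a gene and its copies limits what the level of a single gene shows.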
